A study of Mus musculus with 43 samples.

Results

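Genes of the proteasome and of the ubiquitin-conjugating enzymes were followed in RNA from 4 hypothalamic nuclei of male mice. The members were all rows of the deposited table whose identifier maps to a mouse symbol that starts with Psma to Psmg or with Ube2, without pseudogenes. This gave 36 genes of 10127, 21 with a Psm symbol and 15 with a Ube2 symbol, and 1 pseudogene was left out. The annotation holds 87 protein-coding genes with these symbols, and the 51 others were not analysed here; 45 of them have identifiers in a stretch of the numbering where the table used here has no row. Any order of levels is therefore an order of the measured members only.

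All libraries came from adult males that carried the paternal Snord116 deletion (Snord116+/-P). Their strain is C57/BL6 in the sample labels and C57BL/6J in the methods of the study. Wild-type mice were not analysed here, so no comparison tests the deletion itself. The mice were either fed ad libitum or fasted for 24 h before the brain was taken. The arcuate nucleus (ARC), dorsomedial hypothalamus (DMH), paraventricular nucleus (PVN) and ventromedial hypothalamus (VMH) were cut from sections by laser capture. Each mouse had at most 1 library of a nucleus. Mouse D-85 had 1 library used here (VMH), mouse D-92 had 1 (DMH), mouse D-101 had 3 (none of ARC) and each other mouse had 4. There were 41 libraries of 12 mice: 4 fasted and 5 fed in ARC, 5 and 6 in DMH, 5 and 5 in PVN, and 6 and 5 in VMH. Capture and library preparation were done in 3 batches of 10, 15 and 16 libraries, each with fed and fasted mice. Values are CPM, counts per M (mega) reads of the library, and depth was 1.94 to 8.23 M reads with a median of 4.10 M.

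The captured nuclei were checked by genes that mark them. Npy, a peptide of ARC neurons, was at 194.5 to 1226 CPM in ARC and at most 33.4 elsewhere. Avp (vasopressin) was at 395 to 1475 CPM in PVN and at most 10.04 elsewhere, and Fezf1 was at 172 to 256 CPM in VMH and at most 21.9 elsewhere. DMH stood apart by Pmch, a marker of lateral hypothalamic neurons, at 148.6 to 631 CPM against at most 75.9 elsewhere. In such bulk samples fewer cells of a type and less RNA per cell cannot be told apart.

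The proteasome is the protease that degrades proteins tagged with ubiquitin. Its barrel, the 20S core, is built of alpha subunits that form the gate and beta subunits, some of which cut the substrate; the 19S cap recognises the ubiquitin chain and uses ATPases to unfold the substrate. Other caps (PA28, PA200) and inhibitors can bind the core, and the immunoproteasome replaces catalytic beta subunits after interferon. Ubiquitin reaches the substrate through an activating enzyme (E1), a conjugating enzyme (E2, the Ube2 family) and a ligase (E3). Neurons, like other cells, depend on this system to clear damaged and short-lived proteins.

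Most members were well expressed. Their median level was 60.4 CPM against 17.2 CPM for all genes, in CPM not corrected for gene length, 31 of 36 had a mean of at least 10 CPM, and 33 were above 0 in every library. Single genes are ranked by CPM per kb of exon. In the core, Psmb2 had the highest level at 57.7 CPM per kb, followed by Psma5 at 44.8, and Psmb3 had the lowest at 11.3. Psma4, Psma3 and Psma1 lay between these at 29.7, 27.7 and 18.1 CPM per kb.

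In the 19S cap, the ATPase subunits Psmc2 and Psmc4 were at 37.2 and 28.5 CPM per kb, and the non-ATPase subunits Psmd7 and Psmd8 at 56.1 and 13.6. Among the activators and inhibitors, Psme3 (PA28 gamma, a nuclear activator) was highest at 39.1 CPM per kb. Psme2 (PA28 beta, induced by interferon) followed at 16.0, Psme4 (PA200) at 9.20 and the inhibitor Psmf1 at 6.14. Assembly chaperones ranged from 16.6 CPM per kb for Psmd10 (gankyrin) and 10.2 for Psmg4 to 2.77 for Psmd9 and 1.84 for Psmg3. Psmd9 shares 1849 bases of exon with another gene, so its reads may be mixed.

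Of the special beta subunits, the immunoproteasome subunit Psmb10 was at 9.496 CPM per kb, Psmb11, known as the thymus subunit, at 1.11 and the immunoproteasome subunit Psmb9 at 0.73; the last 2 had the lowest levels of the 36 members. Psmb9 was at 0 in 13 of 41 libraries, more than any other member; Ube2cbp was at 0 in 2 and Psmg4 in 1.

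Of the E2 enzymes, Ube2r2, which works with cullin ligases, was highest at 37.3 CPM per kb, followed by Ube2n at 35.4. Ube2ql1 was at 25.2, Ube2k at 23.4, Ube2l3 at 22.9, Ube2q1 at 17.4 and Ube2d2a at 17.01 CPM per kb. Ube2q2 and Ube2e2 both stood at 14.6, Ube2h at 11.6 and Ube2d3 at 7.39, and Ube2s, which extends chains for the anaphase-promoting complex, was at 3.92 over all libraries, with a gap between batches that is described further on. Outside the ubiquitin E2 enzymes, Ube2v1, a partner of Ube2n without an active site, was at 9.53 CPM per kb, Ube2f, which conjugates NEDD8 and not ubiquitin, at 3.14, and the E2-binding protein Ube2cbp at 1.62.

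**Figure D1:**
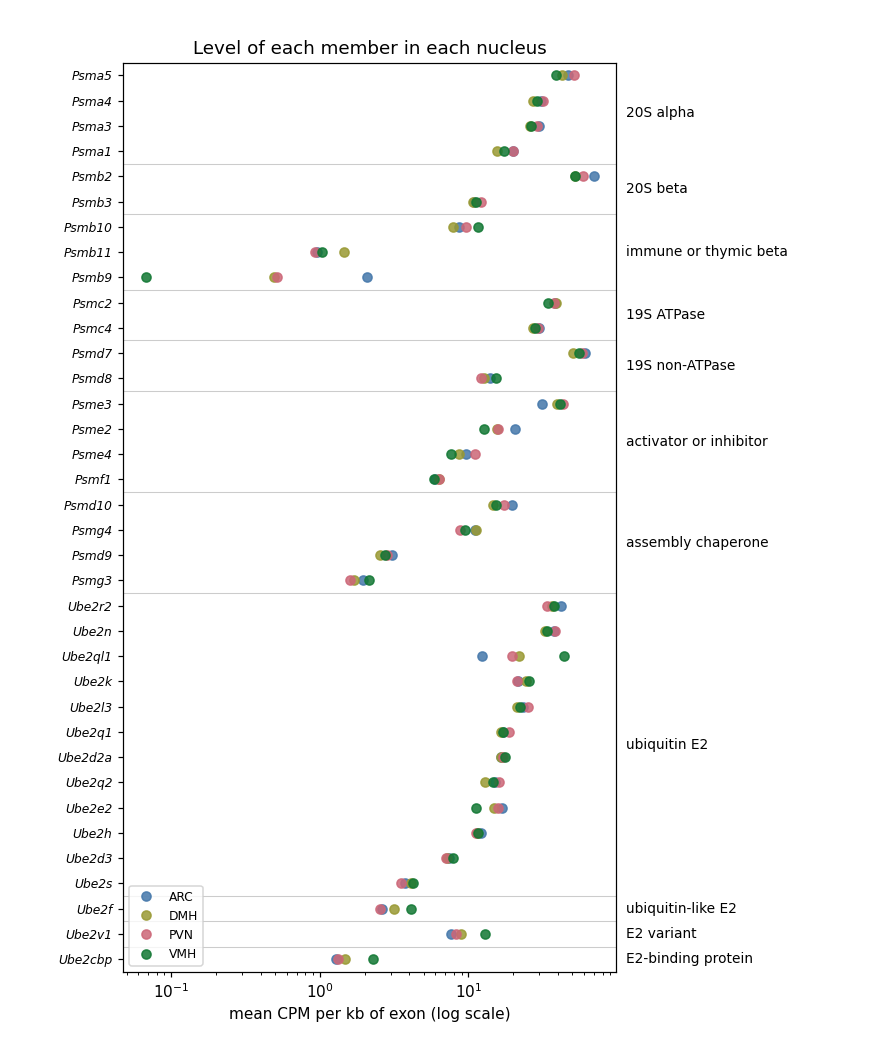
Mean CPM per kb of exon (log axis) of each of the 36 members in each nucleus, grouped by role and ordered by level; each point is the mean over the libraries of 1 nucleus. For most members the 4 points lie close together, whereas Psmb9 and Ube2ql1 spread over the nuclei.

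After removal of group and batch means, the members varied less between libraries than a usual gene: the median residual SD was 0.31 on the log2 scale, against 0.55 for all genes, most of which had lower levels. Psmc2 was the steadiest at 0.13 and Psmb9 the most variable at 1.25. The 10 core and 19S subunits had a median correlation of 0.07 over their 45 pairs across the 41 libraries, with single pairs from -0.34 to 0.47, against 0.0039 for all members and 0.0010 for all genes tested. The libraries of 1 mouse share their animal and batch, and the value is a description.

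The first comparison asked whether a 24 h fast changed these genes in each nucleus. No member passed an adjusted p of 0.1 (limma, Benjamini-Hochberg over all genes tested) in any of the 4 nuclei. Over all genes ARC had 0.176% called, DMH 0.0103%, PVN 0.367% and VMH 0.0208%, so few calls were made at all. At an unadjusted p under 0.05 ARC gave 2 of 36 members, DMH 0 of 36, PVN 1 of 36 and VMH 4 of 35, as Psmb9 was too low to be tested in VMH. The same shares over all genes were 8.1%, 6.62%, 9.97% and 6.98%.

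In no nucleus did fasted and fed libraries of a member fail to overlap, which happened for 2.13% of genes in ARC, for 0.4% (DMH), 1.31% (PVN) and 0.5% (VMH). The median log2 difference of the members was 0.02 for ARC, 0.09 for DMH, -0.01 for PVN and -0.03 for VMH. The medians of all genes were 0.02, 0.01, 0.01 and 0.00. Among the 10 core and 19S subunits the medians were -0.06, 0.16, -0.11 and -0.02, with estimates from -0.38 to 0.53 and none past the threshold.

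**Figure D2:**
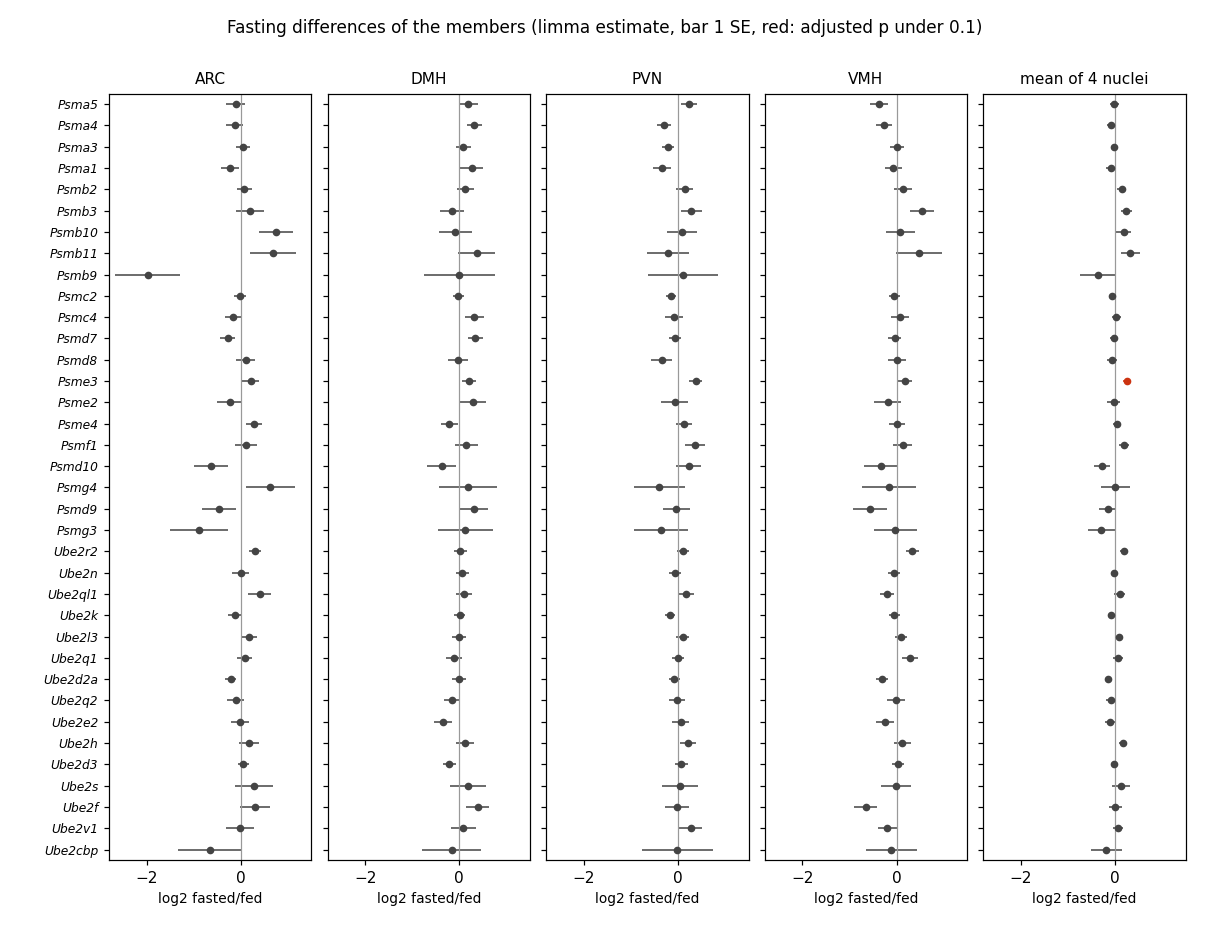
Estimated log2 ratio of fasted to fed (limma, bar 1 SE) for each member in each nucleus and averaged over the 4 nuclei; red marks an adjusted p under 0.1. Points scatter around 0 in every nucleus, and Psme3 in the average is the only red point.

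In ARC the members with the smallest p were Psmb9, Ube2r2 and Psmb10. Psmb9 was at 0, 1.22, 3.67 and 8.23 CPM in the fasted libraries and at 4.56, 5.02, 12.7, 14.2 and 18.99 CPM in the fed ones. One fasted library lay within the fed range, and the estimate was -1.98 ± 0.68 (SE) with adjusted p = 0.458 by limma. Within batches the log2 difference was -3.51, -0.05 and -2.50, with 1 fasted and 1 fed library in batch 1 and 1 fasted library in batch 2. The summed level of 7 microglia markers (of 11 listed) was 111.1 to 162 CPM in fasted and 131 to 226 CPM in fed ARC, and that of 6 vessel markers (of 14) 55.6 to 85.5 in fasted and 94.3 to 116 in fed ARC, with no overlap; their part in the result was not tested.

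Ube2r2 in ARC was at 167 to 221 CPM in 4 fasted and 129 to 196 CPM in 5 fed libraries (0.31 ± 0.12 SE, adjusted p = 0.551). Psmb10 was at 16.6 to 20.4 CPM in fasted and 6.78 to 20.53 CPM in fed ARC (0.75 ± 0.36 SE, adjusted p = 0.612). Both ranges overlapped, and neither difference passed the limma test.

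In DMH the smallest p belonged to Psmd7, Psma4 and Ube2e2. Psma4, a gate subunit, was at 68.3 to 79.8 CPM in 5 fasted and 39.2 to 74.8 CPM in 6 fed libraries (0.32 ± 0.17 SE, adjusted p = 0.785 by limma; 0.21 without mouse D-86). Psmd7 was at 110.98 to 152 against 70.5 to 139.6 CPM (0.34 ± 0.17 SE, adjusted p = 0.755), and Ube2e2 at 29.8 to 85.1 against 51.5 to 109.5 CPM (-0.35 ± 0.19 SE, adjusted p = 0.798; -0.20 without mouse D-86). In PVN Psma4 lay the other way, at 56.1 to 81.1 CPM in fasted and 69.3 to 101.1 CPM in fed libraries (-0.29 ± 0.15 SE, adjusted p = 0.548).

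Psme3 had the smallest p in PVN, at 122, 140.2, 141, 147 and 169 CPM in fasted and at 90.0, 98.04, 106, 128 and 137 CPM in fed libraries. The ranges shared the span from 122 to 137 CPM, and the estimate was 0.37 ± 0.13 (SE) with adjusted p = 0.350 by limma. Psmf1, the proteasome inhibitor, was at 31.9 to 63.0 against 32.3 to 39.1 CPM there (0.37 ± 0.21 SE, adjusted p = 0.591; 0.22 without mouse D-305).

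In VMH the smallest p were those of Ube2f, Ube2r2 and Ube2d2a. Ube2f was at 31.5, 45.0, 47.7, 49.2 and 51.5 CPM in the fed libraries, and in the 6 fasted ones the lowest was 12.6, the median 28.3 and the highest 47.1 CPM. All but 2 fasted libraries lay below the fed range, and the estimate was -0.65 ± 0.25 (SE) with adjusted p = 0.619 by limma. Without mouse D-111 it was -0.41. The within-batch differences were -1.38, -0.36 and -0.46 on the log2 scale. Ube2r2 was at 143 to 252 CPM in fasted and 105 to 158 CPM in fed VMH (0.34 ± 0.14 SE, adjusted p = 0.684), and Ube2d2a, a broadly used E2 enzyme, at 126 to 255 against 154 to 301 CPM (-0.31 ± 0.13 SE, adjusted p = 0.685; -0.19 without mouse D-311).

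The second comparison averaged the fasting difference over the 4 nuclei, with the mouse as a random block. Psme3 alone passed, 1 of 36 members against 3.18% of all genes. Psme3 (ENSMUSG00000078652, GRCm38 chr11:101316213-101323537, plus strand) encodes PA28 gamma, which opens the core for degradation that needs no ubiquitin. It was higher after fasting by 0.25 ± 0.08 (SE) on the log2 scale with adjusted p = 0.0761 by limma.

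In ARC Psme3 was at 85.9, 98.4, 100.6 and 114 CPM in fasted and 60.5, 66.4, 82.0, 103 and 118 CPM in fed libraries. In DMH the fasted libraries were at 114, 115, 122, 133 and 142 CPM, and the 6 fed ones ran from 83.5 through a median of 108 to 131 CPM. In VMH the 6 fasted libraries ran from 92.2 through a median of 132 to 155 CPM, and the fed ones were at 97.96, 105, 121, 122 and 123 CPM. Fasted and fed libraries overlapped in each nucleus, while the mean of the fasted group was the higher in all 4: 99.8 ± 11.6 against 86.02 ± 24.4 in ARC, 125.04 ± 12.2 against 109 ± 16.3 in DMH, 144 ± 16.6 against 112 ± 19.9 in PVN and 129 ± 21.9 against 114 ± 11.4 in VMH (SD).

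The average difference of Psme3 was 0.07, 0.28 and 0.30 on the log2 scale within batches 1, 2 and 3. The call was lost without batch as a covariate (adjusted p = 0.424), with 1 mean per mouse in place of the libraries (0.32, adjusted p = 0.483) and when any 1 of 8 mice was left out.

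At an unadjusted p under 0.05 the average gave 3 of 36 members against 13.2% of genes. Besides Psme3 these were Ube2r2 (0.18 ± 0.08 SE, adjusted p = 0.275 by limma; 0.11 with 1 mean per mouse) and Ube2d2a (-0.15 ± 0.07 SE, adjusted p = 0.309). The next were the beta subunit Psmb3 (0.23 ± 0.12 SE, adjusted p = 0.394) and Ube2h (0.17 ± 0.09 SE, adjusted p = 0.420). The median over the members was -0.02 against 0.01 over all genes.

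The third comparison asked which members differ between nuclei, with each mouse as a block since the nuclei came from the same animals. By the F-test over nuclei 12 of 36 members passed, a share of 33.3% against 43.3% of all genes. They were Ube2ql1, Psmb9, Psmb2, Psme3, Ube2v1, Psme4, Ube2k, Ube2e2, Ube2f, Psme2, Psma5 and Ube2r2. Of the 10 core and 19S subunits only Psmb2 and Psma5 were among them by this test.

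Each nucleus was then set against the mean of the other 3. In ARC 4 members were higher and 3 lower, against 9.75% and 11.6% of all genes; the higher count was 2 without mouse D-127 and 0 with fasted mice only. In DMH 0 were higher and 0 lower, against 8.24% and 6.56%; 2 of 36 had an unadjusted p under 0.05 by limma, against 23.2% of all genes. In PVN 4 were higher and 1 lower, against 10.8% and 12.3%, but without mouse D-86 1 was higher and 2 were lower. In VMH 6 were higher and 6 lower, against 15.9% and 16.2% of all genes; 3 were higher and 1 lower with fed mice only, and 1 was higher and 4 lower with fasted mice only.

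**Figure D3:**
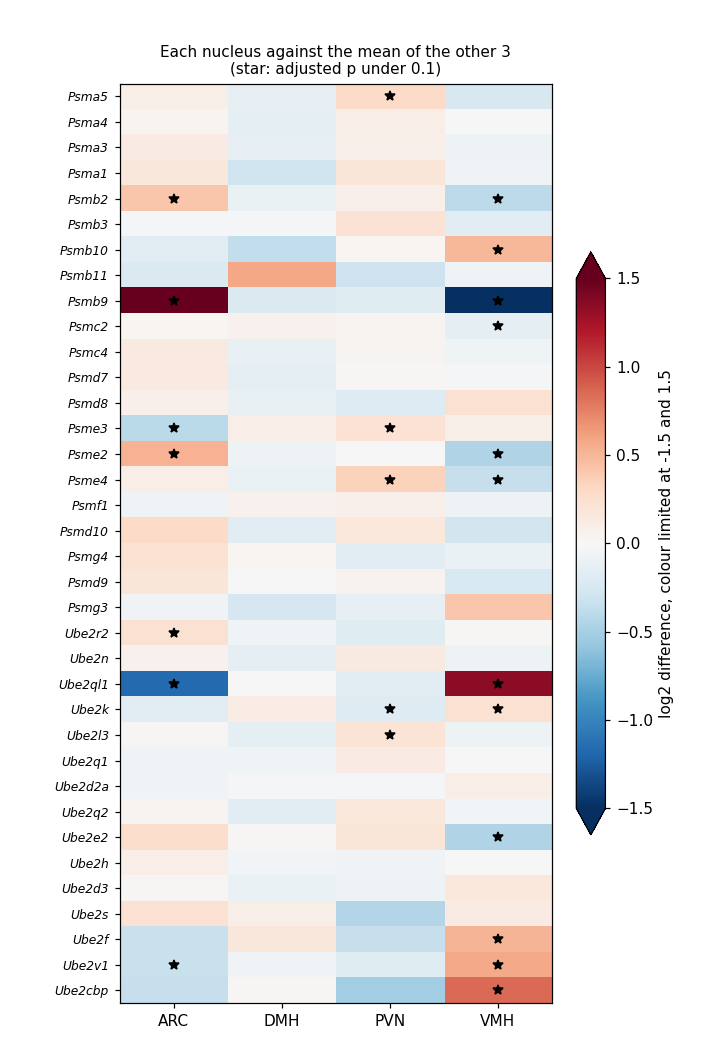
The log2 difference of each nucleus from the mean of the other 3 for the 36 members (limma, mouse as block; colour limited at -1.5 and 1.5, stars for adjusted p under 0.1). Stars are most frequent in VMH and ARC, none falls in DMH, and the darkest cells are those of Psmb9 and Ube2ql1.

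Ube2ql1 had the smallest p of the members. This E2 enzyme of the Ube2q group (ENSMUSG00000052981, chr13:69702832-69739889, minus strand) was higher in VMH by 1.34 ± 0.14 (SE) on the log2 scale (adjusted p = 1.6e-10 by limma) and lower in ARC (-1.17 ± 0.14 SE, adjusted p = 2.9e-08). In VMH the fed libraries were at 99.5, 99.999, 112, 137 and 177 CPM, and the 6 fasted ones ran from 78.6 through a median of 117 to 132 CPM. In ARC the fasted libraries were at 24.0, 31.3, 41.0 and 49.0 CPM and the fed ones at 11.4, 32.0, 33.7, 35.7 and 40.1 CPM.

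The DMH libraries lay at 49.5 to 74.3 CPM and the PVN libraries at 42.5 to 66.1 CPM for Ube2ql1, so these neighbours overlapped. Every VMH library was above every library of the other nuclei, the only member of 36 with such a gap; over all genes 1.01% had one in VMH, with 0.336% for ARC, 0.0692% for DMH and 0.306% for PVN. Within batches the VMH difference was 1.87, 1.07 and 1.26 and the ARC difference -2.16, -0.73 and -0.98 on the log2 scale. Both calls held with fed mice only and with fasted mice only. The summed level of 5 neuron markers (of 11 listed) was 1140.0 to 1642 CPM in VMH, 1045 to 1387 in DMH, 825 to 1047 in ARC and 739 to 981 in PVN, and that of 10 oligodendrocyte markers (of 12) 1240.5 to 1880.2 CPM in VMH against 341 to 1763 elsewhere; their part in the result was not tested.

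Ube2v1 (chr2:167607638-167632095, minus strand) was also higher in VMH, by 0.57 ± 0.13 (SE), adjusted p = 0.0008 by limma. It ran from 25.9 to 52.8 CPM with a median of 33.7 in 11 VMH libraries, against 13.4 to 36.9 with a median of 22.5 in the 30 others. The ranges overlapped, with the 2 highest values in libraries of batch 1, and the difference was 0.83, 0.51 and 0.56 within batches. With fasted mice only it was 0.39 (adjusted p = 0.186). Ube2v1 shares 1673 bases of exon with Gm20431 on its own strand, the larger of its 2 overlaps, so its reads may be mixed.

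Its partner in ubiquitin chain building, Ube2n, did not pass in any nucleus. Other Ube2 members higher in VMH were Ube2k (0.23 ± 0.07 SE, adjusted p = 0.0158), which builds degradation chains, Ube2f (0.51 ± 0.16 SE, adjusted p = 0.0163) and the weakly expressed E2-binding protein Ube2cbp (0.85 ± 0.36 SE, adjusted p = 0.0804, all by limma). The call of Ube2cbp was lost without any 1 of 7 mice (adjusted p up to 0.167 by limma). It was also lost in 3 of 10 other alternatives (up to 0.311), either state alone among them. Over those 10 its VMH difference ran from 0.50 to 0.99. The VMH call of Ube2k was lost with either state alone. Ube2e2 was lower there (-0.45 ± 0.12 SE, adjusted p = 0.0044), at 43.2 to 84.4 CPM in VMH against 29.8 to 124 CPM in the others, a call lost with fed mice only.

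The VMH difference of Ube2f was 0.95 (adjusted p = 0.0023 by limma) in fed mice and 0.05 (adjusted p = 0.917) in fasted mice. The test of nucleus by state for this gene, given further on, did not pass after adjustment. The VMH difference was 0.07, 0.94 and 0.35 within batches 1, 2 and 3.

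Psmb9 (ENSMUSG00000096727, chr17:34181987-34187764, minus strand) was the proteasome member with the widest spread between nuclei. It encodes a catalytic beta subunit that interferon brings into the immunoproteasome. It was higher in ARC by 2.18 ± 0.48 (SE, adjusted p = 0.0007 by limma) and lower in VMH (-1.77 ± 0.46 SE, adjusted p = 0.0026). The 9 ARC libraries, given above, had a mean of 7.62 ± 6.42 CPM (SD).

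The 11 DMH libraries ran from 0 to 4.77 CPM for Psmb9, the 10 PVN libraries from 0 to 4.13 and the 11 VMH libraries from 0 to 1.03. VMH was at 0 in 6 of 11 libraries, and at the median depth 1 CPM rests on about 4.10 reads, so its level in VMH was near the limit of detection. Within batches the ARC difference was 2.91, 2.76 and 1.19, and the VMH difference -1.30, -2.17 and -1.83. The VMH call was lost with fasted mice only.

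The ARC difference of Psmb9 was 3.20 (adjusted p = 0.0002 by limma) in fed mice and 0.89 (adjusted p = 0.548) in fasted mice. The test of the difference itself, nucleus by state, gave an adjusted p = 0.904 by limma. Psmb9 shares 212 bases of exon with Tap1, which runs on the other strand; Tap1 was at 0.85 to 11.5 CPM in ARC and at 0 to 26.5 CPM elsewhere. The summed level of 3 ependyma or tanycyte markers (of 9 listed) was 24.3 to 71.2 CPM in ARC and 3.85 to 26.4 elsewhere, and that of the microglia markers 111.1 to 226 CPM in ARC and 88.9 to 207 elsewhere; their part in the result was not tested.

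Psme2, the PA28 beta cap that is also brought in by interferon, was higher in ARC (0.53 ± 0.19 SE, adjusted p = 0.0489 by limma) and lower in VMH (-0.45 ± 0.18 SE, adjusted p = 0.0606). It ran from 25.8 to 57.8 CPM in ARC and from 11.99 to 32.3 CPM in VMH, and the ARC difference was 0.63, 0.46 and 0.54 within batches. The ARC call of Psme2 was lost without either of 2 mice (adjusted p up to 0.140) and with fasted mice only (0.538), and its VMH call without any 1 of 4 mice (up to 0.202) and with either state alone (up to 0.380). Psmb10, the other immunoproteasome subunit measured, differed the other way, higher in VMH by 0.50 ± 0.19 (SE, adjusted p = 0.0497), a call lost without either of 2 mice (adjusted p up to 0.113) and with either state alone (up to 0.275). VMH had the lowest mean of the 4 nuclei for Psmb9 (0.25 ± 0.35 CPM, SD) and the highest for Psmb10 (19.9 ± 5.97 CPM, SD).

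Psme3 was lower in ARC (-0.41 ± 0.09 SE, adjusted p = 0.0005 by limma) and higher in PVN (0.21 ± 0.08 SE, adjusted p = 0.0696). It ran from 60.5 to 118 CPM with a median of 98.4 in ARC, and from 83.5 to 169 CPM with a median of 122 in the 32 other libraries. The ARC difference was -0.17, -0.60 and -0.42 within batches and passed in fed mice and in fasted mice alone. The PVN call was lost without any 1 of 5 mice (adjusted p up to 0.184) and with fed mice only (0.11, adjusted p = 0.697). The summed level of 6 vessel markers (of 14 listed) was 211 to 349 CPM in PVN, 55.6 to 116 in ARC and 101.5 to 208 in DMH and VMH, and that of 4 astrocyte markers (of 9) 123 to 183 CPM in ARC and 181 to 413 elsewhere. The vessel sums of PVN lay above those of every other nucleus; the part of these cells in this and the other PVN calls was not tested. Of the 4 nuclei, ARC had the highest mean CPM for Psme2 (36.4 ± 10.6 SD) and the lowest for Psme3 (92.2 ± 20.01 SD).

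Psme4, the PA200 cap, was higher in PVN (0.35 ± 0.10 SE, adjusted p = 0.0107) and lower in VMH (-0.35 ± 0.10 SE, adjusted p = 0.0073, both by limma). Its mean was 92.8 ± 17.1 CPM in PVN, 80.6 ± 11.5 in ARC, 73.0 ± 16.0 in DMH and 64.2 ± 9.99 in VMH (SD), and neighbours in this order overlapped. The PVN difference was 0.22, 0.38 and 0.37 within batches, and the VMH difference -0.49, -0.18 and -0.36. Both calls of Psme4 were lost with fed mice only.

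**Figure D4:**
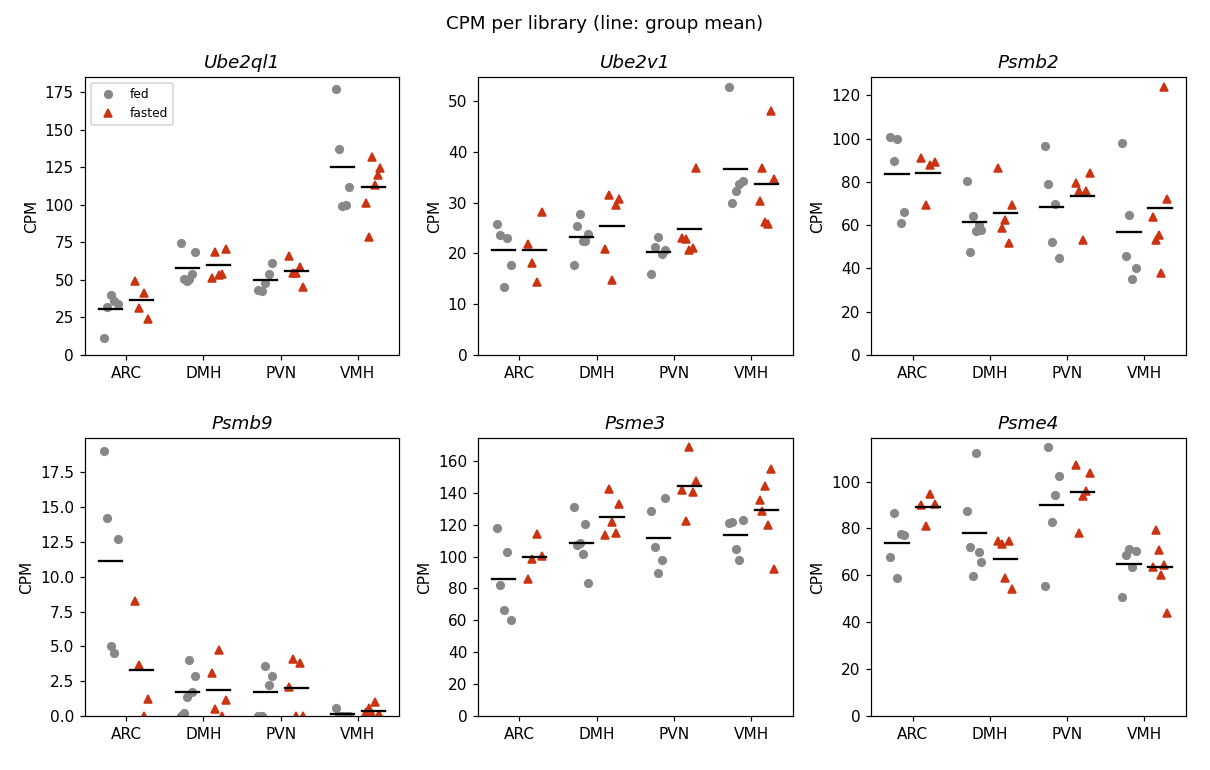
CPM of 6 members in each library by nucleus, with fed libraries as grey circles, fasted ones as red triangles and group means as lines. Ube2ql1 in VMH lies above the other nuclei, Psmb9 reaches its highest values in ARC, and the fasted mean of Psme3 is above the fed mean in every nucleus.

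In the core, the beta subunit Psmb2 (chr4:126677630-126709714, plus strand) was higher in ARC (0.42 ± 0.10 SE, adjusted p = 0.0028) and lower in VMH (-0.40 ± 0.10 SE, adjusted p = 0.0020, both by limma). It was at 60.8 to 100.8 CPM in ARC and 35.1 to 124 CPM in VMH. The VMH difference did not hold within batch 1, where it was 0.19, against -0.40 and -0.58 in batches 2 and 3. The ARC call of Psmb2 was lost with fasted mice only and the VMH call with fed mice only. The 2 highest VMH libraries, at 97.7 and 124 CPM, were both of batch 1.

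The gate subunit Psma5 was higher in PVN (0.29 ± 0.12 SE, adjusted p = 0.0821 by limma), at 50.5 to 82.0 CPM against 37.1 to 86.1 CPM elsewhere. It was 0.13 with fed mice only (adjusted p = 0.693) and 0.45 with fasted mice only. The 19S ATPase Psmc2, the steadiest member, was lower in VMH by a small amount (-0.14 ± 0.06 SE, adjusted p = 0.0907 by limma). The calls not yet given were Ube2r2 higher in ARC (0.23 ± 0.09 SE), Ube2v1 lower in ARC (-0.33 ± 0.14 SE), and Ube2l3 higher and Ube2k lower in PVN (0.20 ± 0.08 and -0.19 ± 0.07 SE), with adjusted p from 0.0649 to 0.0995 by limma. Each of these 6 calls was lost without some single mouse of the 12: without any of 6 mice for Psma5 and for Psmc2, 9 for Ube2v1, 4 for Ube2k and 3 for Ube2r2 and for Ube2l3. Of 10 other alternatives, Ube2v1 lost its call in 6 (adjusted p up to 0.411), Psmc2 (up to 0.486) and Ube2l3 (up to 0.403) in 3, Ube2r2 (up to 0.323) and Ube2k (up to 0.522) in 2, and Psma5 in 1. Ube2l3 shares 1670 bases of exon with Ydjc on the other strand, so its reads may be mixed.

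The fourth comparison tested whether the fasting difference itself varied with the nucleus. By the limma F-test 0 of 36 members passed, as did 0.0% of all genes, and 1 member had an unadjusted p under 0.05 against 5.56% of genes. It was Ube2f (adjusted p = 0.853 by limma), with log2 fasting differences of 0.30 (ARC), 0.39 (DMH), -0.02 (PVN) and -0.65 (VMH). The next was Psma5 (adjusted p = 0.853), which in VMH was at 37.1 to 57.6 CPM fasted and 44.1 to 70.4 CPM fed, and in PVN at 61.0 to 82.0 CPM fasted and 50.5 to 80.7 CPM fed.

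One member differed sharply between batches. Ube2s (ENSMUSG00000060860, chr7:4794546-4812590, minus strand) was at 34.6 to 82.3 CPM in the 10 libraries of batch 1 and at 3.05 to 17.3 CPM in the 31 libraries of batches 2 and 3. These ranges did not overlap, as in 0.356% of all genes and in no other member. In batch 1 the gap was seen in both states and in all 4 nuclei, with 34.6, 44.7, 65.8 and 82.3 CPM in 1 fed mouse and 54.7, 51.0, 59.0 and 39.5 CPM in 1 fasted mouse, each for ARC, DMH, PVN and VMH in turn.

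Averaged over nuclei, Ube2s was 2.43 log2 units higher in batch 1, and the other 35 members lay between -0.86 (Ube2q2) and 0.59 (Psmb3), while the quartiles of all genes were -0.32 and 0.30. With batch as a covariate or within the mouse block, Ube2s passed no test: 0.12 ± 0.19 (SE, adjusted p = 0.845 by limma) for the average fasting difference and F = 1.34 (adjusted p = 0.398) between nuclei. Ube2s overlaps Rpl28 on the other strand by 183 bases of exon, and Rpl28 was at 24.2 to 85.3 CPM in batch 1 and 17.8 to 38.5 CPM in batches 2 and 3; its part in the Ube2s values was not tested. Psmb2, described above, was also higher in batch 1, by 0.47.

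**Figure D5:**
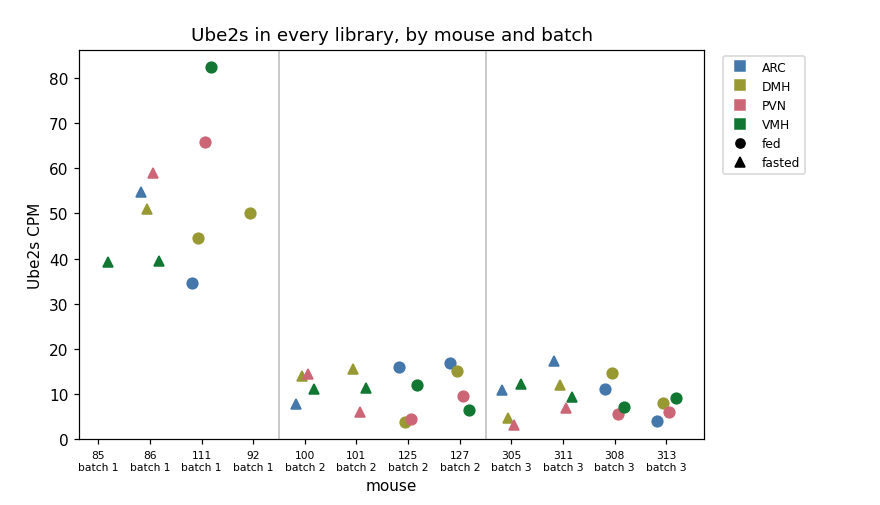
Ube2s CPM in every library, by mouse and batch (colour for the nucleus, circles for fed, triangles for fasted). The 10 libraries of batch 1 lie at 34.6 CPM and above, and all others at 17.3 CPM and below.

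Promoters of the members were searched for TGACNNNGC, the core letters of the antioxidant response element that the factor Nfe2l1 uses at proteasome genes. RefSeq promoters of 300 bases (GRCm38.p6, 250 before and 50 after the start) were found for 33 of 36 members, and both strands were read. The letters were present in 7 of 33 members, in 7 of their 42 promoters (16.7%), and in 12.4% of 32851 promoters of all genes. They were in 0 of the 9 promoters of core and 19S members. Of the 14 promoters found for 11 of the 12 members that differed between nuclei, 5 held the letters (35.7%), 4 of them of Ube2 genes. The stretches below are from these 5 and run 5′ to 3′ on the strand that holds the letters, which are in capitals; they lie at chr13:69739848-69739872, chr2:167632208-167632236, chr11:30771758-30771786, chr14:18893415-18893443 and chr1:91250583-91250611.
Ube2ql1: ggctgcTGACATTGCagaggcggct
Ube2v1: ggccccggggTGACCGTGCgcttccggga
Psme4: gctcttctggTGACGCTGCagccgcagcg
Ube2e2: caggcctcccTGACCCTGCgcgtgtccgc
Ube2f: ctccgcaccgTGACCTTGCgggcggcggc
A match is a description of letters and no site. The members that hold it did not share a direction: in VMH, Ube2ql1, Ube2v1 and Ube2f were higher, and Psme4 and Ube2e2 lower. The CCAAT letters were in 11 of the 42 promoters (26.2%) and in 37.4% of all promoters.

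Nfe2l1 and other genes of the pathway were taken from lists of E1 enzymes, ligases, deubiquitinases, proteasome partners and regulators, of which 43 were measured. After fasting, 1 of 43 passed in ARC, 0 in DMH, PVN and VMH, and 3 of 43 in the average over nuclei. The shares of all genes were 0.176% (ARC), 0.0103% (DMH), 0.367% (PVN), 0.0208% (VMH) and 3.18% (average). The lists were chosen with earlier results of these data known, so counts of listed genes are descriptions and cannot show an excess over these shares. The ARC gene was Foxo1, a transcription factor that acts on ubiquitin ligase genes, at 154 to 205 CPM in 4 fasted and 83.1 to 133 CPM in 5 fed libraries (0.76 ± 0.16 SE, adjusted p = 0.0867 by limma). These ranges did not overlap, as was so for 2.13% of all genes in ARC.

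In the average, Usp2, a deubiquitinase, was higher after fasting (0.70 ± 0.18 SE, adjusted p = 0.0334), as was Foxo1 (0.34 ± 0.10 SE, adjusted p = 0.0531), whereas Usp14, the deubiquitinase bound to the 19S cap, was lower (-0.20 ± 0.06 SE, adjusted p = 0.0921, all by limma). Usp14 had a mean of 149.9 ± 23.7 CPM in 20 fasted and 175 ± 36.5 CPM in 21 fed libraries (SD). How the calls of Usp2, Foxo1 and Usp14 move under the alternatives is not given here. Between nuclei 22 of 43 passed the F-test, a share of 51.2% against the 43.3% above. Nfe2l1 and Ddi2, which cuts and frees it, were both lower in DMH (-0.25 ± 0.07 and -0.39 ± 0.12 SE, adjusted p = 0.0082 and 0.0212 by limma), and the deubiquitinase Cyld was higher in VMH (0.58 ± 0.07 SE).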

How the data were processed

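The authors deposited CPM values, counts scaled to library size, and the table used here holds 10127 genes. Its values summed to 554896 to 689010 CPM in single libraries, so its rows do not hold all reads. Shares of all genes are shares of the genes in this table. By the methods of the study, reads were mapped to GRCm38, and the submitters' processing notes name CASAVA 1.7, TopHat2 2.0.11, Cufflinks 2.2.1, edgeR and limma. The counter and its use of strand are not given in the sources used here. Of the table's columns 2 were not used, since no sample's label matches them, and 2 of 43 samples had no matching column, which left 41 libraries. The unused columns are named ARC for mice D-85 and D-92, while the samples without a column are labelled PVN of the same mice. Which label is right was not tested. Depth was read from the value of 1 read in each library; 97.8 to 98.8% of low values were whole multiples of it within 0.1, but 101 genes had positive values under 0.01 CPM, so the CPM were tested as deposited and no count test was run.

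Genes with at least 1 CPM in a number of libraries equal to the smaller group were tested on log2(CPM + 0.5) with limma 3.58.1 in R 4.3.3 (trended variance, Benjamini-Hochberg over all genes tested, adjusted p under 0.1). Fold changes are on this scale, which understates changes of low genes. Fasting fits held batch as a covariate; the average over nuclei took the mouse as a random block (consensus correlation -0.003), and nucleus fits took it as a fixed block, because libraries with the same mouse number came from the same animal. Fed and fasted mice were different animals. The fits were tested on simulated data.

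All members are accounted for. CPM by library or as a range are given for members called after fasting and the 3 with the smallest p in each nucleus. They are also given for the 5 with the smallest p in the F-test over nuclei and 2 in the test of nucleus by state. Of the 5 with the smallest p in the average, Psmb3 and Ube2h are given by their estimates. Other pathway genes are counted, with values for some past the threshold. The members and gene lists were chosen with earlier results of these data known. Alternatives were other pseudocounts (0.25 and 2), no filter or 5 CPM, other scalings, library weights, no batch, other blocks, either state alone and each library or mouse left out.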

Additional observations from a re-analysis of the deposited data

Results flagged for a closer look

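Within the 8 groups of nucleus and state, 24 members were searched for a single library far from the rest of its group (Dixon's criterion at the 95% level). Of 192 groups examined 16 held one. A rate of 1 in 20, or 9.6, holds for independent groups of normal values. These groups share libraries between members and mix batches, so that number is only a rough guide. Of the 16 values 11 were from batch 1, which held 10 of the 41 libraries. Of these 11, 7 were from fed mouse D-111 and 4 from fasted mouse D-86.

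Ube2s accounts for 4 of them, at 51.0 CPM in DMH and 59.0 CPM in PVN of fasted mouse D-86, and at 65.8 CPM in PVN and 82.3 CPM in VMH of fed mouse D-111. The other libraries of those groups, all of batches 2 and 3, were at 3.05 to 15.5 CPM, so these values repeat the batch gap given above. Ube2v1 was at 36.9 CPM in PVN of mouse D-86 (others 20.6 to 23.1) and at 52.8 CPM in VMH of mouse D-111 (others 29.9 to 34.3). Ube2r2 was at 222 CPM in PVN of mouse D-86 (others 124 to 139).

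In mouse D-111, Psmb10 was at 26.6 CPM in PVN (others 10.5 to 14.2), Psmb3 at 36.6 CPM in VMH (others 12.9 to 17.8) and Psmb9 at 0.58 CPM in VMH, where the other fed libraries were at 0. Any value above 0 meets the criterion in such a group, so Psmb9 in VMH shows nothing by it; without it 15 values are left, 10 from batch 1 and 6 of those from mouse D-111. Ube2ql1 was low in ARC of this mouse, at 11.4 CPM against 32.0 to 40.1.

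In fasted mouse D-305, Psmb2 was low in ARC at 69.1 CPM (others 87.7 to 91.1) and in PVN at 53.1 CPM (others 75.7 to 83.9), and Ube2cbp was high in ARC at 3.95 CPM (others 0.72 to 0.91). Psmd10 was at 28.7 CPM in DMH of fasted mouse D-101 (others 14.2 to 17.1), and Ube2f at 34.0 CPM in ARC of fasted mouse D-100 (others 21.7 to 23.4).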

How the results depend on the processing

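The count of members called for fasting in single nuclei and for nucleus by state was 0 under every alternative run. In the average over nuclei the count of 1 fell to 0 without the batch covariate and to 0 with the replicate block as 1 mean per mouse, stayed 1 with no replicate block, and ranged from 0 to 2 when 1 mouse was left out. It was 0 without mouse D-92, D-100, D-101, D-127, D-305, D-308, D-311 or D-313 (numbers as in the labels), and 2, with Ube2r2 added, without mouse D-125. The count of 12 members that differed between nuclei was 7 with fed mice only and 7 with fasted mice only, where fewer libraries entered the fit. It was 12 with no replicate block, and 9 to 12 when 1 mouse was left out. Over the 10 alternatives other than leaving out 1 mouse it ran from 7 to 15. With 1 mouse left out, the members higher and lower were 2 to 5 and 2 to 3 in ARC, 0 and 0 to 1 in DMH, 1 to 4 and 0 to 2 in PVN, and 4 to 6 and 4 to 7 in VMH. The PVN counts moved by over 1.5 times without mouse D-86, D-100, D-305, D-311 or D-313, the ARC count without mouse D-127 and the DMH count without mouse D-86 or D-305. With fed mice only 0 members were called in PVN, 3 were higher and 1 lower in VMH, and 1 was lower in DMH. With fasted mice only 0 were higher in ARC, 0 lower in PVN and 1 higher in VMH. In DMH 1 was higher with a pseudocount of 2, and 1 was higher and 1 lower with no replicate block. Of 24 calls of a nucleus against the others, 13 held in every alternative that used both states, and 3 held in all: Ube2ql1 in ARC and VMH and Psme3 in ARC. The 11 others, lost in at least 1 such alternative, were Psma5, Psme3, Ube2k and Ube2l3 in PVN, Psmb10, Psmc2, Psme2 and Ube2cbp in VMH, and Psme2, Ube2r2 and Ube2v1 in ARC. Among the values of single genes that have a direction, none was reversed under the alternatives. The 909 values examined also include F values of Psma5 and Ube2f for nucleus by state, which have no direction. At the median depth 1 CPM is about 4.10 reads, so Psmb9 and Ube2cbp rest on few reads.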
